A study of Rattus norvegicus with 25 samples.

Results

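The 10 genes described here encode Toll-like receptors and parts of the inflammasome, taken by symbol from a table of 34322 genes counted in rat hippocampus. They are the receptors Tlr2, Tlr3, Tlr4 and Tlr7, the co-receptor Cd14, the adaptor Myd88, the inflammasome sensor Nlrp3, its adaptor Pycard, the protease Casp1 and the cytokine Il18. All 10 were found, and all passed the filter on low counts that left 21064 genes for testing. PolyA RNA was sequenced in 25 libraries, 5 in each of 5 groups, from male Sprague-Dawley rats that were adults of 6 to 7 weeks. The groups TD-CCI, TCF-CCI and TNF-CCI received a controlled cortical impact (CCI), in which a piston strikes the exposed cortex above the hippocampus, and a supplement, which was thymus in TD-CCI, its cytosolic factor in TCF-CCI and its nuclear factor in TNF-CCI. The letters TNF in a group name do not stand for tumour necrosis factor. Vehicle-CCI had the impact with vehicle, and Vehicle-sham had a sham operation with vehicle. No sham group received a supplement, so that injury and supplement cannot be told apart in a supplement group set against Vehicle-sham. Neither the dose nor the interval between impact and sampling was stated in the labels, nor which hemisphere was taken.

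Toll-like receptors are membrane proteins that bind microbial molecules and material released from damaged cells, and most of them signal through the adaptor MyD88 to the transcription factor NF-kB and to interferon regulatory factors. NLRP3, the adaptor ASC (the product of Pycard) and caspase-1 assemble in the cytosol into an inflammasome, where caspase-1 cleaves the precursors of interleukin-1 beta and interleukin-18 and the pore-forming protein gasdermin D. In the brain most of these genes are expressed mainly by microglia, the resident macrophages.

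Each library held 27.3 to 44.9 M counts (M, 1e6), and the median library 32.8 M. The TNF-CCI libraries held 35.2 to 44.9 M and the Vehicle-sham libraries 27.3 to 33.7 M, without overlap. The share of counts on mitochondrial ribosomal RNA differed between libraries, for reasons that were not tested. It ran from 2.95% to 10.9% over the TNF-CCI libraries and from 5.56% to 9.89% over the other CCI libraries, against 2.18% to 25.6% in Vehicle-sham, where replicates 2 and 3 were highest. Summed markers of hippocampal neurons, led by Zbtb20, Neurod6 and Calb1, lay at 599 to 1257 CPM in the 20 CCI libraries and at 954 to 1343 CPM in the 5 sham libraries, where CPM is counts per 1e6 counts after TMM scaling. Markers of neighbouring tissue were high in single libraries. Those of the choroid plexus and ependyma reached 3912 CPM in 1 Vehicle-CCI library, and those of the thalamus 290.3 CPM in 1 TD-CCI library. The labels do not say that the libraries came from separate animals, so that the p-values rest on a spread between libraries that may be technical.

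The upstream sequences of the 4 genes that passed the test in at least 1 comparison are printed first, because the comparisons with sham turn on these genes. Each is the 250 bases before the gene's start in the RefSeq annotation of GRCr8, read 5′ to 3′ on the gene's strand, at chrX:30644176-30644425 (+) for Tlr7, chr18:28611159-28611408 (-) for Cd14, chr5:85160997-85161246 (+) for Tlr4 and chr1:192033420-192033669 (-) for Pycard. Capitals mark the letters GAGGAA, the core bound by PU.1 (a transcription factor of macrophages and microglia), or their reverse complement.
Tlr7: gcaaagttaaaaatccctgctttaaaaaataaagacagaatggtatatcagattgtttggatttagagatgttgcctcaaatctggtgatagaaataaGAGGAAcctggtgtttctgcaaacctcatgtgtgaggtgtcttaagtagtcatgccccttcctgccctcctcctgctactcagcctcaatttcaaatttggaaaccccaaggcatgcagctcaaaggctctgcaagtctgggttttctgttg
Cd14: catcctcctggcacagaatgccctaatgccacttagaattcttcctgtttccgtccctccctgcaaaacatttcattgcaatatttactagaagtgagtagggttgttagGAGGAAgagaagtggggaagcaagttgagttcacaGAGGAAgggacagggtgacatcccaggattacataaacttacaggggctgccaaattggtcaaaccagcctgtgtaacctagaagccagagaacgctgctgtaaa
Tlr4: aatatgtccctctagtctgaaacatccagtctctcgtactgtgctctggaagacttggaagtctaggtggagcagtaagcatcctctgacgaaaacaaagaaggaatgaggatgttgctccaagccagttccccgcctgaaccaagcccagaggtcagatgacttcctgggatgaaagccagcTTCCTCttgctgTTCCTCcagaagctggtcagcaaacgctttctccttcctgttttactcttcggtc
Pycard: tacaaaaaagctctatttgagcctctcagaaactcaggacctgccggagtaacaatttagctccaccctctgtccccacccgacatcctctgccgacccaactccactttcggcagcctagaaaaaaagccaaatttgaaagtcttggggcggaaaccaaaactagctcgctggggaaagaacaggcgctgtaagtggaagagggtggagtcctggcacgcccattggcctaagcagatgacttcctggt

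All 10 genes had an entry in the promoter table. On either strand, GAGGAA stood in the 250 bases of 6 of them (Tlr3, Tlr4, Tlr7, Cd14, Nlrp3 and Casp1) and in 23.2% of 27457 rat promoters of the same length. Cd14 held it at bases 140 to 135 and again at 105 to 100 before its start, and Tlr4 held its reverse complement at 67 to 62 and at 55 to 50. The AP-1 letters TGANTCA stood in Myd88 alone, against 6.36% of all promoters. The interferon response element stood in Myd88 and Casp1, against 3.29%. The NF-kB consensus stood in Tlr2 alone, against 5.23%. None of these motifs was found in the Pycard window. Searches for different motifs could overlap in the letters they matched, and a match is a description of the letters and not a measured binding site.

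The genes lie on 8 chromosomes of mRatBN7.2, the build of the count table. Casp1 (2587812 to 2597403), Il18 (50904630 to 50932887) and Myd88 (119074439 to 119078508) share chromosome 8. Tlr7 lies on chromosome X (27027380 to 27054309), Cd14 on 18 (28335522 to 28337383), Pycard on 1 (182601657 to 182603013), Tlr4 on 5 (80145867 to 80159501), Nlrp3 on 10 (44326770 to 44353814), Tlr3 on 16 (46821980 to 46837900) and Tlr2 on 2 (169200620 to 169206819). The counts cover each gene's annotated exons. Of these genes, Il18 shared its span with other genes, namely Bco2 and Tex12 on the opposite strand. Those genes averaged 3.17 and 1.7 CPM over all libraries, and Tex12 shared 1 exon base with Il18.

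Levels between genes can be compared only per length, as CPM per kilobase of exon. On that scale Casp1 had the highest mean, at 6.78 ± 3.13 in the CCI libraries (SD, n = 20) and 3.28 ± 1.48 in sham (n = 5). Pycard averaged 5.93 ± 2.07 in the CCI libraries and 3.23 ± 1.25 in sham. Tlr7 averaged 4.67 ± 1.93 against 2.32 ± 0.495, and Il18 averaged 4.44 ± 1.99 against 2.48 ± 1.04. Neighbours in this order lay within each other's SD. The sham mean of Casp1 included 5.91 in Vehicle-sham 3, and Pycard lay above Casp1 in Vehicle-sham 1, 2 and 5 but below it in 3 and 4. In TNF-CCI Pycard averaged 7.74 against 7.6 for Casp1, while Casp1 had the higher mean in each of the other CCI groups. Tlr7 was the most abundant of the 4 receptors, with Tlr3 at 2.07 ± 0.695 in the CCI libraries and 1.3 ± 0.352 in sham. Cd14 was the least abundant of the 10 genes, at 0.973 ± 0.383 in the CCI libraries and 0.404 ± 0.126 in sham, and its raw counts there ran from 22 to 137 and from 12 to 30.

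**Figure D1:**
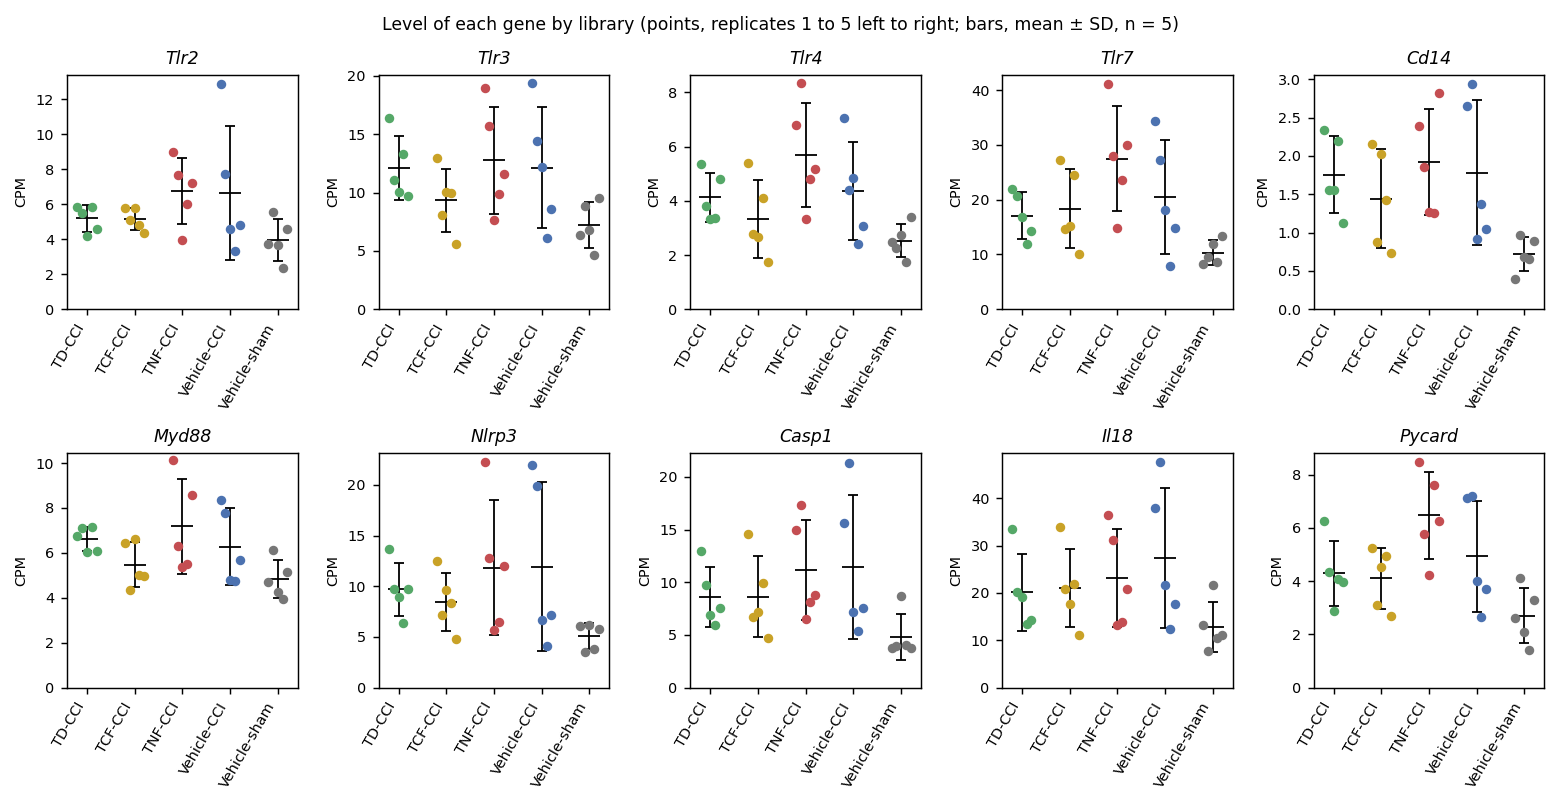
Level of each gene in CPM (vertical axis, linear, from 0) in the 25 libraries, with a panel per gene and a column per group; points are libraries and bars the mean ± SD (n = 5). Tlr7, Cd14 and Pycard in TNF-CCI lay above every Vehicle-sham library, and Nlrp3 in Vehicle-CCI, from 4.07 to 22 CPM, had the highest coefficient of variation (69.6%).

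The average of the 4 CCI groups was first set against Vehicle-sham. Of these groups 3 received a supplement, and their average can differ from sham without a difference in each group. All 10 genes had higher averages in the injured hippocampus, by 1.32-fold for Myd88 to 2.41-fold for Cd14, and 3 passed the test. No gene had all 20 CCI libraries above every sham library, as 0.0427% of the genes tested had. Those that passed were the receptor Tlr7, the co-receptor Cd14 and the inflammasome adaptor Pycard. At an edgeR adjusted p under 0.05, 3 of 10 genes rose and 0 fell, where 2.24% of the 21064 genes tested rose. At an unadjusted p under 0.05 all 10 were higher, where 9.68% of the genes tested were. The median log2 fold change was 0.84 over the 10 genes and 0.01 over all genes tested. In bulk tissue a higher level per cell and more cells of the type that expresses a gene cannot be told apart.

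Tlr7 is an endosomal receptor of single-stranded RNA. It measured 22, 20.7, 16.8, 11.9 and 14.2 CPM in TD-CCI, 27.3, 14.6, 15.2, 24.5 and 10.1 CPM in TCF-CCI, 41.2, 27.9, 14.8, 23.6 and 29.9 CPM in TNF-CCI and 34.4, 27.2, 18.1, 7.94 and 14.9 CPM in Vehicle-CCI, against 8.24, 9.56, 11.9, 8.67 and 13.4 CPM in Vehicle-sham (replicates 1 to 5 of each group). Of the 20 CCI libraries 17 lay above every sham library and 1, Vehicle-CCI 4, below every sham library. Averages were 20.9 ± 8.61 CPM in CCI (SD, n = 20) and 10.4 ± 2.21 CPM in sham (n = 5), and the log2 fold change was 0.99 ± 0.27 (SE; edgeR adjusted p = 0.0359).

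Cd14 encodes a surface protein that hands lipopolysaccharide to the TLR4 complex. It measured 2.34, 1.55, 1.56, 2.2 and 1.13 CPM in TD-CCI, 2.15, 0.88, 2.02, 1.42 and 0.731 CPM in TCF-CCI, 2.39, 1.85, 1.26, 1.25 and 2.82 CPM in TNF-CCI and 2.65, 2.93, 0.917, 1.37 and 1.05 CPM in Vehicle-CCI, against 0.397, 0.967, 0.676, 0.652 and 0.884 CPM in Vehicle-sham. All 20 CCI libraries were above the sham mean and 17 above every sham library. TCF-CCI 2, TCF-CCI 5 and Vehicle-CCI 3 overlapped with sham. Averages were 1.72 ± 0.678 CPM in CCI and 0.715 ± 0.223 CPM in sham, and the log2 fold change was 1.27 ± 0.32 (edgeR adjusted p = 0.0285).

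Pycard encodes ASC, which links the sensor to caspase-1. It measured 6.25, 4.34, 2.88, 4.09 and 3.95 CPM in TD-CCI, 5.23, 3.1, 4.53, 4.94 and 2.69 CPM in TCF-CCI, 8.46, 5.75, 4.24, 7.6 and 6.27 CPM in TNF-CCI and 7.12, 7.19, 3.98, 2.64 and 3.69 CPM in Vehicle-CCI, against 2.61, 4.1, 2.1, 1.4 and 3.27 CPM in Vehicle-sham. The groups overlapped, with 12 of 20 CCI libraries above every sham library and 18 above the sham mean. Averages were 4.95 ± 1.73 CPM in CCI and 2.7 ± 1.04 CPM in sham, and the log2 fold change was 0.86 ± 0.25 (edgeR adjusted p = 0.0452).

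The other inflammasome genes lay close to the threshold without passing it. Casp1, which encodes caspase-1, measured 13, 9.69, 6.9, 5.9 and 7.53 CPM in TD-CCI, 14.6, 6.71, 7.15, 9.93 and 4.68 CPM in TCF-CCI, 15, 17.4, 6.5, 8.14 and 8.74 CPM in TNF-CCI and 15.6, 21.3, 7.21, 5.37 and 7.53 CPM in Vehicle-CCI, against 3.71, 3.93, 8.68, 4.01 and 3.71 CPM in Vehicle-sham. Vehicle-sham 3 stood apart from the other sham libraries, all of which lay below every CCI library. The log2 fold change of Casp1 was 1.04 ± 0.32 (edgeR adjusted p = 0.0508), and 1.36 without Vehicle-sham 3 (edgeR adjusted p = 0.0412). Its adjusted p ran from 0.0181 to 0.18 over the alternative settings.

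Nlrp3, the sensor, measured 13.7, 9.72, 8.96, 6.39 and 9.75 CPM in TD-CCI, 12.4, 7.16, 9.58, 8.3 and 4.82 CPM in TCF-CCI, 22.2, 12.8, 5.63, 6.45 and 12 CPM in TNF-CCI and 22, 19.9, 6.64, 4.07 and 7.16 CPM in Vehicle-CCI, against 6.09, 3.47, 6.2, 3.85 and 5.75 CPM in Vehicle-sham. Of the 20 CCI libraries 17 lay above every sham library, and the levels of TNF-CCI 1, Vehicle-CCI 1 and Vehicle-CCI 2 were the highest. The log2 fold change was 1.03 ± 0.34 (edgeR adjusted p = 0.0641). Il18, the cytokine precursor that caspase-1 cleaves, ran from 11.1 to 47.6 CPM over the CCI libraries, with a median of 20.6, and from 7.8 to 21.8 CPM over the sham libraries, with a median of 11.1. Its groups overlapped widely (0.82 ± 0.31, edgeR adjusted p = 0.0976), and as in Casp1 the highest sham library was Vehicle-sham 3.

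Among the other receptors, Tlr4, which recognises lipopolysaccharide, measured 5.35, 3.8, 3.32, 3.38 and 4.81 CPM in TD-CCI, 5.4, 2.76, 2.68, 4.12 and 1.73 CPM in TCF-CCI, 6.81, 8.33, 3.34, 4.81 and 5.17 CPM in TNF-CCI and 7.07, 4.4, 4.84, 2.4 and 3.05 CPM in Vehicle-CCI, against 2.48, 2.28, 2.74, 1.73 and 3.39 CPM in Vehicle-sham. The groups overlapped, with 12 of 20 CCI libraries above every sham library (0.77 ± 0.25, edgeR adjusted p = 0.0663). Tlr3, an endosomal receptor of double-stranded RNA that signals through another adaptor than MyD88, ran from 5.55 to 19.4 CPM in CCI, with a median of 10.6, and from 4.66 to 9.55 CPM in sham, with a median of 6.8 (0.67 ± 0.24, edgeR adjusted p = 0.0819). Tlr2, a receptor of bacterial lipoproteins, ran from 3.34 to 12.9 CPM in CCI and from 2.35 to 5.58 CPM in sham (0.58 ± 0.24, edgeR adjusted p = 0.13). The smallest difference was that of Myd88, the shared adaptor, at 4.34 to 10.1 CPM in CCI and 3.94 to 6.15 CPM in sham (0.40 ± 0.17, edgeR adjusted p = 0.138).

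**Figure D2:**
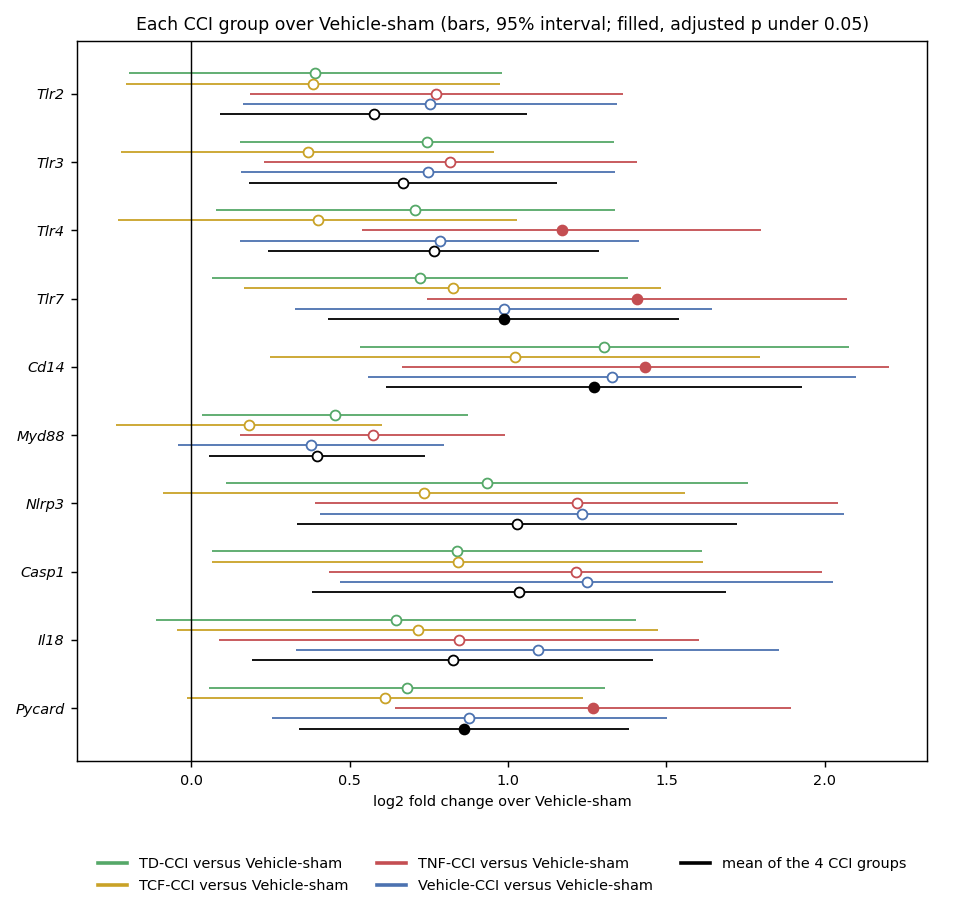
Log2 fold change over Vehicle-sham (horizontal axis) of each gene in the 4 CCI groups and their mean, with bars for the 95% interval and filled points for an edgeR adjusted p under 0.05. All points lie above 0, and filled points are Tlr7, Cd14 and Pycard in the average of the 4 CCI groups and Tlr4, Tlr7, Cd14 and Pycard in TNF-CCI.

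The count of 3 depended on single libraries, while each log2 fold change against sham stayed above 0 in all alternatives run. It was 0 without Vehicle-sham 2 or 4, 1 without Vehicle-sham 1 (Cd14) or 3 (Casp1), 7 without Vehicle-CCI 4, 5 without TCF-CCI 5, and 0 without Vehicle-sham 2 and 3 together. The whole table moved as well, with 1248 genes called with all libraries, 14 after Vehicle-sham 2 was left out, 761 after Vehicle-sham 4, 2007 after Vehicle-sham 1, 671 after Vehicle-sham 3, 2117 without Vehicle-CCI 4, 1155 without TCF-CCI 5 and 0 without Vehicle-sham 2 and 3. Without Vehicle-sham 2 the log2 fold changes of Tlr7, Cd14 and Pycard were 0.98, 1.41 and 1.07 (edgeR adjusted p = 0.12, 0.07 and 0.0704). DESeq2 called 6 of the 10 genes, the same 3 with Tlr4, Nlrp3 and Casp1 (3.34% of its genes rose), and limma voom called 4, the same 3 with Casp1 (3.03% rose).

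Microglial markers were higher in the same comparison. Of 12 markers 5 rose and 0 fell, with a median log2 fold change of 0.81, where 2.24% of all genes rose. Summed over the 12, they ran from 304.8 to 1000 CPM in the CCI libraries, with a median of 537.7, and from 283.9 to 438.4 CPM in sham, with a median of 361.7. The markers of highest level were Csf1r, the receptor of colony-stimulating factor (103.9 ± 42.2 CPM in CCI and 39 ± 15.2 CPM in sham, 1.4 ± 0.3, edgeR adjusted p = 0.0222), Gpr34 (0.14 ± 0.33, edgeR adjusted p = 0.821) and Sall1 (0.65 ± 0.2, edgeR adjusted p = 0.0563). Their part in the results on the 10 genes was not tested.

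The 10 genes were also set against that sum in TNF-CCI, Vehicle-CCI and Vehicle-sham. Per 1000 CPM of microglial markers, Tlr2 stood at 10.1 ± 1.41 CPM in TNF-CCI, 10.4 ± 1.55 CPM in Vehicle-CCI and 11.2 ± 2.31 CPM in Vehicle-sham (SD, n = 5 each). Tlr3 stood at 18.9 ± 3.73, 19.8 ± 4.47 and 20.5 ± 4.1 CPM in the same groups. Myd88 stood lower in the injured groups, at 10.7 ± 0.816 CPM in TNF-CCI and 10.7 ± 1.56 CPM in Vehicle-CCI against 13.9 ± 1.97 CPM in Vehicle-sham. Tlr7 stood at 40.4 ± 6.41 CPM in TNF-CCI and 32.3 ± 7.45 CPM in Vehicle-CCI, against 29.7 ± 5.44 CPM in Vehicle-sham. Cd14 stood at 2.83 ± 0.535 CPM in TNF-CCI and 2.84 ± 0.789 CPM in Vehicle-CCI, against 2.01 ± 0.421 CPM in Vehicle-sham. The other receptor, Tlr4, stood at 8.57 ± 2.43 CPM in TNF-CCI and 7.24 ± 2.13 CPM in Vehicle-CCI, against 7.27 ± 1.79 CPM in Vehicle-sham. Among the inflammasome genes, Pycard stood at 9.86 ± 2.45 CPM in TNF-CCI and 7.97 ± 1.09 CPM in Vehicle-CCI, against 7.57 ± 2.24 CPM in Vehicle-sham. Casp1 stood at 16.6 ± 5.78 and 17.8 ± 5.46 CPM in the same injured groups, against 13.7 ± 5.33 CPM in Vehicle-sham. Nlrp3 stood at 16.8 ± 5.68 and 17.6 ± 6.04 CPM, against 14.9 ± 4.93 CPM, and Il18 at 33.7 ± 9.83 and 43.2 ± 11.8 CPM, against 37.3 ± 14.9 CPM. In TD-CCI and TCF-CCI these ratios were 30.7 ± 5.4 and 37.5 ± 7.96 CPM for Tlr7, 3.17 ± 0.863 and 2.87 ± 0.604 CPM for Cd14 and 7.67 ± 1.32 and 8.52 ± 0.959 CPM for Pycard. These ratios are descriptions without a test, and the ranges of each gene overlapped between these groups.

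Of the markers of blood-borne cells, 1 passed. Of 7 tested markers of monocytes and border macrophages, led by Lyz2, Mrc1 and Plac8, 0 passed in edgeR, and 0 had an unadjusted p under 0.05. Their sums were 54.97 to 210 CPM in CCI and 47.35 to 166 CPM in sham. Of 7 tested neutrophil markers Csf3r rose (1.21 ± 0.34, edgeR adjusted p = 0.0379), a receptor gene that microglia also express, where 2.24% of all genes rose. Most of the list went the other way, with 2 of the 7 above 0 and a median log2 fold change of -0.25. At an unadjusted p under 0.05 in edgeR, 1 was higher and 2 were lower. The neutrophil markers Elane and Cxcr2 averaged under 0.1 CPM in every group. The sums of the list, led by Csf3r itself, were 7.37 to 33.95 CPM in CCI and 7.37 to 13.7 CPM in sham. Summed lymphocyte markers ran from 0.764 to 3.27 CPM in CCI and from 1.88 to 4.61 CPM in sham. Summed red blood cell markers, led by the haemoglobin genes, ran from 98.8 to 682.5 CPM in CCI and from 52.65 to 1662 CPM in sham, and of the 5 tested 0 passed in edgeR, with all 5 lower at an unadjusted p under 0.05 (median -1.04). Of 10 hippocampal neuron markers 4 fell and 0 rose, where 776 of the 21064 genes tested fell. The part of these lists in the results on the 10 genes was not tested.

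Vehicle-CCI was set against Vehicle-sham for the effect of the impact without a supplement. All 10 genes were above 0, with a median log2 fold change of 0.93, and 0 passed at an edgeR adjusted p under 0.05, as did 0% of all genes tested. At an unadjusted p under 0.05, 9 of the 10 were higher (all but Myd88), where 6.66% of all genes were. The largest differences were those of Cd14 (1.78 ± 0.941 CPM in Vehicle-CCI and 0.715 ± 0.223 CPM in Vehicle-sham, SD, n = 5 each, with 1.33 ± 0.37 on the log2 scale, edgeR adjusted p = 0.166) and Casp1 (11.4 ± 6.81 against 4.81 ± 2.17 CPM, 1.25 ± 0.38, edgeR adjusted p = 0.185). Nlrp3 followed at 1.23 ± 0.4 (edgeR adjusted p = 0.212) and Il18 at 1.09 ± 0.37 (edgeR adjusted p = 0.228). The Vehicle-CCI libraries spread widely, with a coefficient of variation of 69.6% for Nlrp3 and 59.7% for Casp1. Without Vehicle-CCI 4 edgeR called 3 of the 10, Tlr7, Nlrp3 and Casp1, among 368 genes of the whole table, and DESeq2 with all libraries called Cd14 alone (0.994% of its genes rose). In the authors' deposited table of this comparison 0 of the 10 had an adjusted p under 0.05, as did 0.308% of genes in the higher direction.

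In TD-CCI against Vehicle-sham, the first of the supplement comparisons that the series names, all 10 genes were above 0, with a median log2 fold change of 0.72, and 0 passed in edgeR, as did 0% of all genes. Tlr3, Cd14 and Nlrp3 in TD-CCI lay above every sham library, as did 2.36% of all genes tested. At an unadjusted p under 0.05, 8 were higher (6.84% of all genes), and 0 of the 10 were called by DESeq2 (0.689% of its genes rose) or limma voom (0.00475%). Cd14 averaged 1.75 ± 0.501 CPM in TD-CCI and 0.715 ± 0.223 CPM in Vehicle-sham (1.3 ± 0.37, edgeR adjusted p = 0.155). Nlrp3 averaged 9.71 ± 2.62 against 5.07 ± 1.31 CPM (0.93 ± 0.4, edgeR adjusted p = 0.25), and Tlr3 12.1 ± 2.78 against 7.24 ± 1.97 CPM (0.74 ± 0.29, edgeR adjusted p = 0.221). In the authors' deposited table for TD-CCI over the control, 2 of the 10 passed, Cd14 (log2 fold change 1.3, adjusted p = 0.00797) and Nlrp3 (0.92, adjusted p = 0.0123), where 1.97% of genes rose.

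TCF-CCI had the lowest median of the 4 CCI groups and the smallest log2 fold change over sham for 7 of the 10 genes, while Tlr7, Casp1 and Il18 were lower in TD-CCI. The median log2 fold change of the 10 genes was 0.66, with 10 above 0, and 0 passed in edgeR (0.0142% of genes in either direction, 0% higher), DESeq2 (0.642% higher) or limma voom (0.479% higher). At an unadjusted p under 0.05, 3 were higher in edgeR (Tlr7, Cd14 and Casp1), where 6.31% of all genes were. Cd14 averaged 1.44 ± 0.645 CPM in TCF-CCI and 0.715 ± 0.223 CPM in Vehicle-sham (1.02 ± 0.38, edgeR adjusted p = 0.19). Tlr7 averaged 18.4 ± 7.26 against 10.4 ± 2.21 CPM (0.83 ± 0.32, edgeR adjusted p = 0.204), and Myd88 5.48 ± 1 against 4.84 ± 0.863 CPM (0.18 ± 0.2, edgeR adjusted p = 0.639). In the authors' deposited table for TCF-CCI over the control, 0 of the 10 passed, where 1.13% of genes rose.

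TNF-CCI had the largest differences from sham for 7 of the 10 genes. At an edgeR adjusted p under 0.05, 4 of 10 rose and 0 fell, namely Tlr7, Pycard, Tlr4 and Cd14, where 1.71% of all genes rose and 2.57% moved in either direction. Tlr7 averaged 27.5 ± 9.61 CPM in TNF-CCI and 10.4 ± 2.21 CPM in Vehicle-sham (SD, n = 5 each), with 1.41 ± 0.32 on the log2 scale (edgeR adjusted p = 0.0255). Pycard averaged 6.47 ± 1.64 against 2.7 ± 1.04 CPM (1.27 ± 0.3, edgeR adjusted p = 0.0312). The receptor of lipopolysaccharide and its co-receptor rose as well. Tlr4 averaged 5.69 ± 1.92 against 2.52 ± 0.611 CPM (1.17 ± 0.31, edgeR adjusted p = 0.0404), and Cd14 1.92 ± 0.693 against 0.715 ± 0.223 CPM (1.43 ± 0.37, edgeR adjusted p = 0.0404). Of these 4 genes Tlr7, Cd14 and Pycard did not overlap with sham, as 2.58% of all genes did not in the higher direction, and in Tlr4 the library TNF-CCI 3 overlapped. Limma voom called 3 of the 10, Tlr7, Cd14 and Pycard, but not Tlr4 (2.52% of its genes rose). DESeq2 called 6, the 4 named with Nlrp3 and Casp1 (3.07% rose).

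The other genes of the pathway had values above sham without passing. Casp1 averaged 11.2 ± 4.74 CPM in TNF-CCI and 4.81 ± 2.17 CPM in Vehicle-sham (1.21 ± 0.38, edgeR adjusted p = 0.0733), and Nlrp3 11.8 ± 6.64 against 5.07 ± 1.31 CPM (1.22 ± 0.4, edgeR adjusted p = 0.088). Tlr3, Myd88, Tlr2 and Il18 had log2 fold changes of 0.82, 0.57, 0.77 and 0.85, with edgeR adjusted p-values from 0.106 to 0.194. At an unadjusted p under 0.05 all 10 were higher, where 9.41% of all genes were. The median over the 10 genes was 1.19. In the authors' deposited table for TNF-CCI over the control, 6 of the 10 passed, the 4 named with Nlrp3 (adjusted p = 0.0339) and Casp1 (adjusted p = 0.0248), where 2.72% of genes rose.

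The 4 calls in TNF-CCI depended on single libraries. EdgeR called 0 without TNF-CCI 1, TNF-CCI 5 or Vehicle-sham 4, 1 (Tlr7) without Vehicle-sham 3 and 0 without Vehicle-sham 2 and 3 together. Over the whole table the same fits called 0, 0, 0, 174 and 0 genes, against 542 with all libraries. Without Vehicle-sham 2 and 3, the log2 fold changes of Tlr7, Pycard, Tlr4 and Cd14 were 1.46, 1.43, 1.18 and 1.58. With mitochondrial rRNA added to the fit as a covariate, whose share averaged 4.87 ± 3.41% in TNF-CCI and 11.6 ± 9.62% in Vehicle-sham, edgeR called 0 of the 10 (Tlr7 1.38, adjusted p = 0.0691) and 74 genes of the whole table, and a fit of these 2 groups alone called 1, Tlr7, among 197. Summed microglial markers ran from 494 to 884.5 CPM in TNF-CCI and from 283.9 to 438.4 CPM in Vehicle-sham, without overlap. Of the 12 markers 5 rose, where 1.71% of all genes rose, and the part of these markers in the result was not tested.

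The supplement groups were then set against Vehicle-CCI, the comparison of a supplement with the impact alone. None of the 10 genes passed in any of the 3 comparisons by edgeR, DESeq2 or limma voom, and 0 had an unadjusted p under 0.05 in edgeR. DESeq2 called 0.00307% of its genes higher in TD-CCI over Vehicle-CCI. Over the whole table edgeR called 0% of genes in each. The shares at an unadjusted p under 0.05, in either direction, were 1.75% in TD-CCI, 1.44% in TCF-CCI and 3.46% in TNF-CCI. In TD-CCI 9 of the 10 genes were below Vehicle-CCI (median log2 fold change -0.23) and in TCF-CCI 10 of 10 (median -0.37). In TNF-CCI 7 of 10 were above it (median 0.09). The 3 comparisons share the same Vehicle-CCI libraries, so that a common direction of the genes is not separate evidence.

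The intervals show which differences remained possible at this number of libraries. For TNF-CCI over Vehicle-CCI, Tlr7 averaged 27.5 ± 9.61 and 20.5 ± 10.4 CPM (log2 fold change 0.42, 95% interval -0.23 to 1.07). Pycard averaged 6.47 ± 1.64 and 4.93 ± 2.1 CPM in these groups (0.39, -0.22 to 1), and Tlr4 5.69 ± 1.92 and 4.35 ± 1.81 CPM (0.39, -0.23 to 1). In these 3 genes, 4 of 5 TNF-CCI libraries lay above the Vehicle-CCI mean. The sensor Nlrp3 was at -0.02 (-0.82 to 0.79) and the protease Casp1 at -0.04 (-0.79 to 0.72). Il18 was at -0.25 (-1 to 0.5).

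For TD-CCI over Vehicle-CCI the lowest values were those of Il18 (20.1 ± 8.04 and 27.4 ± 14.8 CPM, log2 fold change -0.45, interval -1.2 to 0.3) and Casp1 (8.6 ± 2.81 and 11.4 ± 6.81 CPM, -0.41, -1.17 to 0.35). For TCF-CCI over Vehicle-CCI they were those of Nlrp3 (8.46 ± 2.84 and 11.9 ± 8.31 CPM, -0.5, -1.31 to 0.31) and again Casp1 (8.62 ± 3.83 and 11.4 ± 6.81 CPM, -0.41, -1.17 to 0.35). All the groups overlapped in these genes. The spread differed between groups: the coefficient of variation of Nlrp3 was 27% in TD-CCI, 33.5% in TCF-CCI, 56.2% in TNF-CCI and 69.6% in Vehicle-CCI. A test of any difference among the 4 CCI groups called 0 of the 10 genes, with unadjusted p-values from 0.105 for Tlr4 to 0.7 for Cd14 (edgeR F test), and 0 genes of the whole table.

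**Figure D3:**
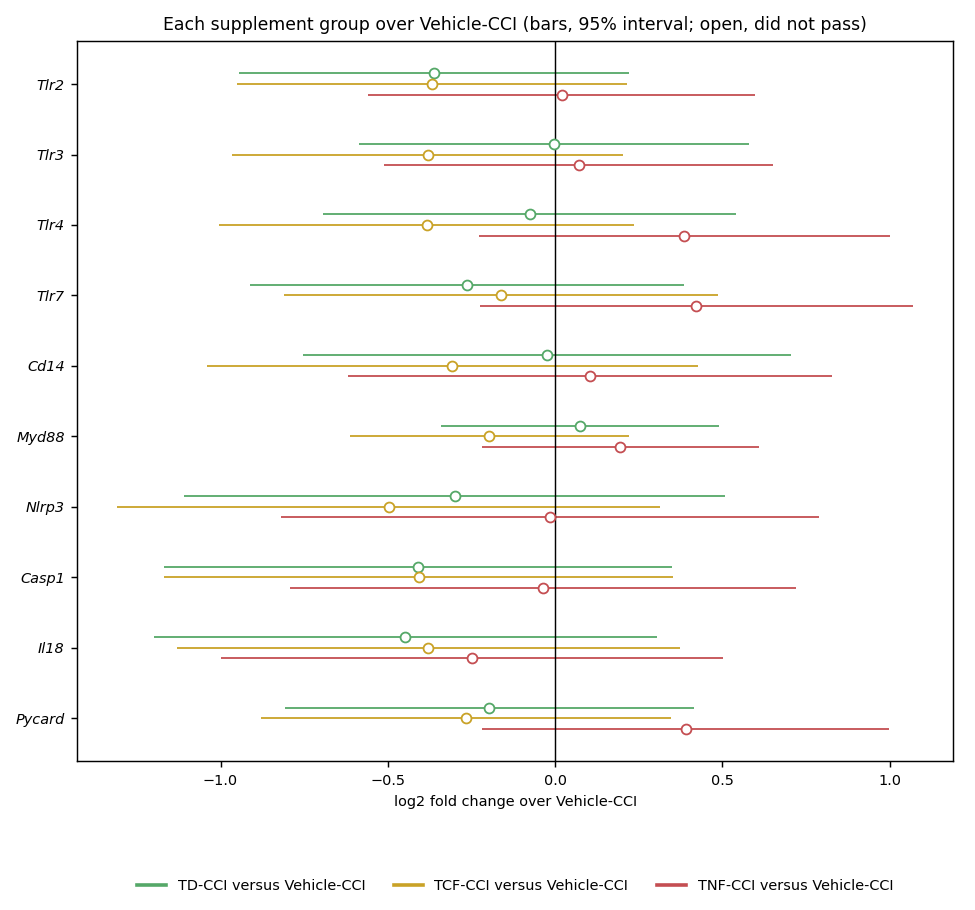
Log2 fold change over Vehicle-CCI (horizontal axis) of each gene in the 3 supplement groups, with bars for the 95% interval and open points because none passed. All intervals include 0; the highest estimate is that of Tlr7 in TNF-CCI (0.42) and the lowest that of Nlrp3 in TCF-CCI (-0.5).

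The 10 genes varied together from library to library. After group means were subtracted, the 45 pairs of genes had correlations of log2 CPM from 0.458 to 0.933 over the 25 libraries, with a median of 0.734, and the highest was that of Casp1 with Il18. Of the 20 CCI libraries, Vehicle-CCI 1 was among the top 3 for 9 of the 10 genes, TNF-CCI 1 for 8 and Vehicle-CCI 2 for 6. Vehicle-CCI 4 was among the bottom 3 for 9 genes and TCF-CCI 5 for 8. The summed microglial markers were also highest in Vehicle-CCI 1 and TNF-CCI 1, at 1000 and 884.5 CPM, and they were 304.8 CPM in TCF-CCI 5 and 383.4 CPM in Vehicle-CCI 4. Among the sham libraries Vehicle-sham 4 was lowest for 5 of the 10 genes, and Vehicle-sham 2 was highest for 4 and lowest for 2. The TMM factor of Vehicle-sham 2 was 0.645, the lowest of the 25 libraries, which raises its CPM over the unscaled value. These correlations are descriptions, since genes of a library share its cells and its depth.

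**Figure D4:**
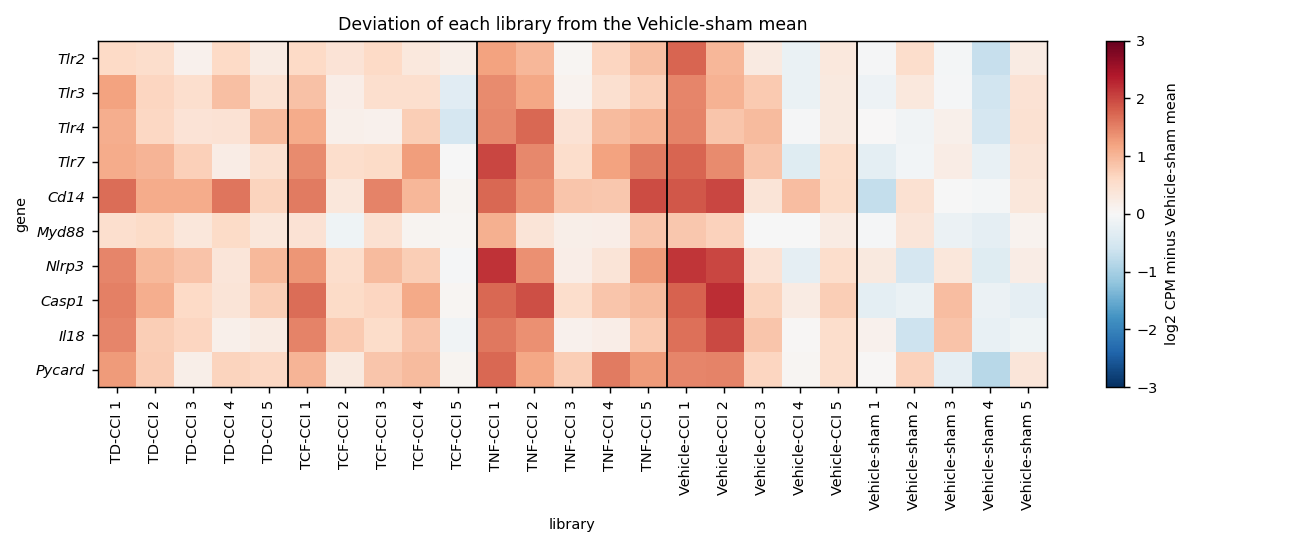
Log2 CPM of each gene (rows) in each of the 25 libraries (columns) minus the Vehicle-sham mean, on a colour scale from -3 to 3. Vehicle-CCI 1 and TNF-CCI 1 stand out in red in most rows, while Vehicle-CCI 4 and TCF-CCI 5 are close to the sham libraries.

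The genes whose pattern was most like each of the 10 were sought among 16907 genes with a mean of at least 1 CPM, by Pearson's r of log2 CPM over the 25 libraries after subtraction of group means. Nlrp3 was most like Cyth4 (r = 0.973) and Lat2 (0.967). Il18 was most like Lpar6 (0.958) and Ccdc17 (0.953), and Casp1 like Il18 (0.933) and Clec4a (0.926). Tlr7 was most like Trim30 (0.94) and Tlr13 (0.934), another Toll-like receptor. Trim30 also led for Tlr4 (0.878), followed by Lacc1 (0.877), and Tlr3 was most like Vwa5a (0.926) and Cd84 (0.924). Arpc1b, an actin-nucleating subunit, led for both Myd88 (0.903) and Cd14 (0.897), followed by Lpar5 (0.896) and Hcls1 (0.88). Pycard was most like Plek (0.906) and Anxa3 (0.893), and Tlr2 like Anxa3 (0.895) and Tmem176b (0.881).

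The rest of the pathway was described by fixed lists, chosen with earlier results of these data known. Among 15 other tested Toll-like receptors and co-receptors, 5 rose and 0 fell in the average of the 4 CCI groups over sham, with a median log2 fold change of 0.75. In the same comparison 2.24% of all genes tested rose. Unc93b1, which carries endosomal receptors to their compartment, averaged 18.2 ± 8.61 CPM in CCI (n = 20) and 5.93 ± 0.723 CPM in sham (n = 5), above every sham library in 19 of 20 (1.6 ± 0.32, edgeR adjusted p = 0.0222). Tlr13, which senses bacterial ribosomal RNA in mice, averaged 10.8 ± 5.74 against 3.02 ± 1.25 CPM (1.79 ± 0.39, edgeR adjusted p = 0.0222). Tlr8 and Tlr9, both endosomal, rose by 2.07 ± 0.49 and 1.43 ± 0.38 (edgeR adjusted p = 0.0246 and 0.0328), at 0.965 ± 0.556 and 2.08 ± 1.06 CPM in CCI. The fifth was Cd180, a surface relative of TLR4, named after its values were seen (1.12 ± 0.32, edgeR adjusted p = 0.0418). In TNF-CCI over sham, where 1.71% of all genes rose, 5 of the 15 rose. They were Unc93b1 (1.93 ± 0.38), Tlr13 (2.28 ± 0.46), Tlr9 (1.87 ± 0.44), Tlr6 (0.96 ± 0.24) and Tlr8 (2.18 ± 0.55, the last named after its values were seen), with edgeR adjusted p-values from 0.0198 to 0.0379.

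Of 24 tested adaptors, kinases and brakes downstream of the receptors, 0 passed in edgeR in the average of the 4 CCI groups over sham, 3 were higher and 2 lower at an unadjusted p under 0.05, and the median was 0.16. Those of smallest p were the adaptor Pik3ap1 (10.6 ± 3.96 CPM in CCI and 5.95 ± 1.19 CPM in sham, 0.83 ± 0.26, edgeR adjusted p = 0.0529) and the deubiquitinase Cyld (92.4 ± 13.5 against 119 ± 27 CPM, -0.37 ± 0.13, edgeR adjusted p = 0.0735). Of 13 NF-kB and interferon regulatory factor genes 2 rose and 0 fell (median 0.45), where 2.24% of all genes rose. Irf8, a transcription factor of microglia and other myeloid cells, averaged 48 ± 30.8 against 12.7 ± 4.97 CPM (1.89 ± 0.45, edgeR adjusted p = 0.0246), and Irf5, which acts downstream of MyD88, 26.4 ± 9.07 against 15 ± 2.03 CPM (0.81 ± 0.22, edgeR adjusted p = 0.0351).

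Where 2.24% of all genes rose in this comparison, 1 of 19 other tested inflammasome and pyroptosis genes rose and 0 fell (median 0.51). It was Nlrc4, which encodes a part of an inflammasome that responds to bacterial flagellin, at 3.74 ± 1.72 CPM in CCI and 1.44 ± 0.365 CPM in sham (1.37 ± 0.36, edgeR adjusted p = 0.0322). Gsdmd, which encodes the pore-forming substrate of caspase-1, stood at 7.74 ± 1.63 and 5.4 ± 1.35 CPM in the same groups (0.51 ± 0.17, edgeR adjusted p = 0.0607). Against the same 2.24% of all genes, 1 of 11 genes of IL-1 and IL-18 ligands and receptors rose and 0 fell (median 0.37). It was Il1r1, the interleukin-1 receptor, which signals through MyD88, at 8.86 ± 2.49 against 4.69 ± 0.654 CPM (0.91 ± 0.21, edgeR adjusted p = 0.024). Il1b, the other cytokine precursor that caspase-1 cleaves, was at 0.571 ± 0.225 against 0.281 ± 0.0683 CPM (1.01 ± 0.32, edgeR adjusted p = 0.0582).

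Where 2.24% of all genes rose, 3 of 14 tested cytokine and enzyme targets of Toll-like receptor signalling rose and 0 fell (median 0.98). They were the signalling inhibitor Socs3 (5.03 ± 3.56 CPM in CCI and 1.25 ± 0.901 CPM in sham, 1.93 ± 0.5, edgeR adjusted p = 0.0311), the costimulatory ligand Cd86 (5.43 ± 2.79 against 2.07 ± 0.91 CPM, 1.34 ± 0.35, edgeR adjusted p = 0.0319) and the chemokine Cxcl1 (0.564 ± 0.582 against 0.107 ± 0.0218 CPM, 2.29 ± 0.67, edgeR adjusted p = 0.0448). The cytokine gene Tnf was near the sham level at 0.517 ± 0.185 against 0.464 ± 0.254 CPM (0.15 ± 0.33, edgeR adjusted p = 0.809). In TNF-CCI over sham, Irf8, Irf5, Nlrc4, Il1r1, Cd86 and Socs3 rose as well, with log2 fold changes of 2.22, 1.04, 1.72, 1, 1.88 and 2.46 and edgeR adjusted p-values from 0.0231 to 0.0372. No gene of these lists passed in edgeR in Vehicle-CCI, TD-CCI or TCF-CCI over sham, nor in a supplement group over Vehicle-CCI. Without Vehicle-sham 2 and 3 edgeR called 0 genes of the whole table, and so 0 of each list, in both comparisons with calls.

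**Figure D5:**
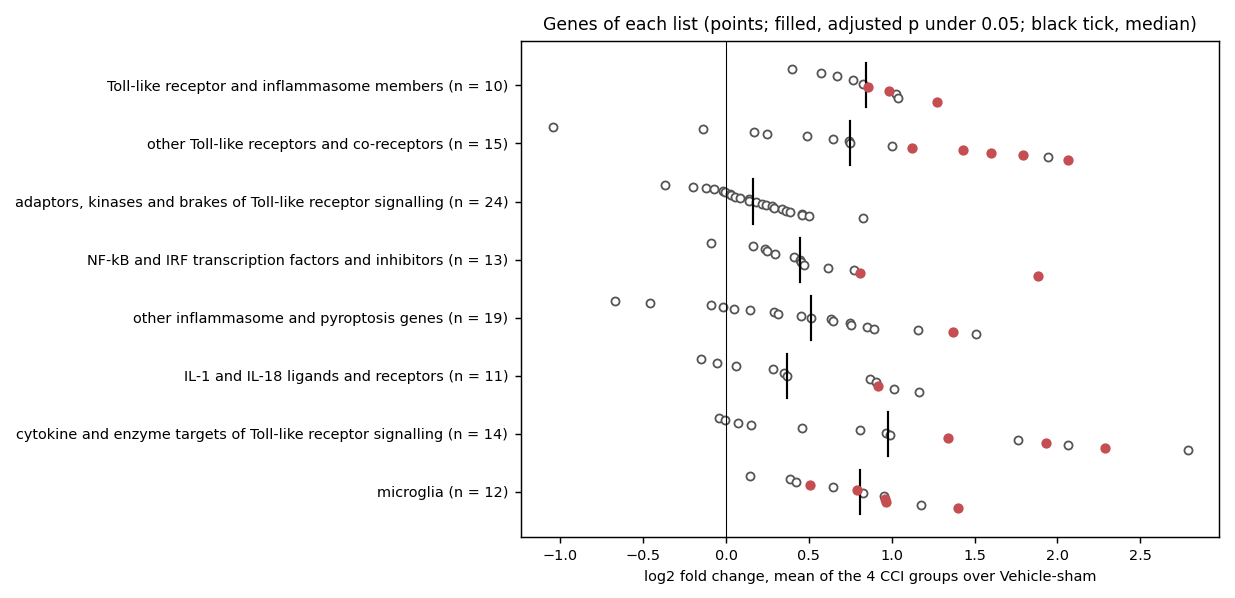
Log2 fold change of the average of the 4 CCI groups over Vehicle-sham (horizontal axis) for the genes of each list (rows); points are genes, filled where the edgeR adjusted p was under 0.05, and the black tick is the median. Medians run from 0.16 for adaptors and kinases to 0.98 for cytokine and enzyme targets, with 0.84 for the 10 genes and 0.81 for microglial markers.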

How the data were processed

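Per the labels' protocols, hippocampal RNA was extracted with a fibrous tissue kit and made into polyA libraries with a TECAN kit. The count table was used as the authors deposited it, in raw counts. Tools named in the submitters' processing notes are featureCounts, STAR, Salmon and DESeq2, with the build mRatBN7.2 and no roles. No source states the strand setting, so reads of a gene and an overlapping or antisense partner cannot be told apart. The authors also deposited, per the file headers, a log2 fold change over the control with p-values for each CCI group. Of the 34322 genes, 7 with empty cells were left out. Chi-square over degrees of freedom between replicates was 23.7 to 682 in all pairs, far above counting error, so the spread between libraries sets the precision.

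Tests used edgeR 4.0.16 in R 4.3.3 (TMM, filterByExpr, robust quasi-likelihood), with all 25 libraries in 1 fit and Benjamini-Hochberg adjustment over 21064 genes. On simulated data for the average of the 4 CCI groups over sham (20845 genes), 80 of 100 genes changed by 1 on the log2 scale and 98 of 100 changed by 2 were called, with 12 unchanged genes. The simulation drew each gene separately, without the differences that genes of a real library share. It changed only genes with a mean of at least 1 CPM, so that these counts need not hold for the real libraries. Alternatives were DESeq2 1.42.0, limma 3.58.1 (voom with quality weights), DESeq2 size factors, no filter, a fit of the groups compared, a replicate block and the omission of each library in turn. A fit without Vehicle-sham 2 and 3 and a mitochondrial rRNA covariate were chosen after seeing the data. The members and gene lists were chosen with earlier results of these data known. Beside the 10 genes, the text names the genes called in each list (at most 4, those of smallest p; the 2 of smallest p where none was called), Il1b, Tnf and Gsdmd, the 3 most abundant markers and the 2 genes most alike in pattern.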

Additional observations from a re-analysis of the deposited data

Results flagged for a closer look

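Over 60 groups of 5 libraries examined for a sample far from the others, 2 stood out, and chance gives about 1 in 20. Casp1 in Vehicle-sham 3 measured 8.68 CPM, against 4.01 CPM in the next sham library, and its effect on the comparison with sham is given above. The mitochondrial ribosomal RNA share of TNF-CCI 2 was 10.9%, against 4.17% in the next TNF-CCI library.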

How the results depend on the processing

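Over 33 alternative settings, 2493 of 2630 values for single genes kept their direction and side of the threshold. Another 59 no longer passed, 26 newly passed and 52 changed sign, none of the 1640 against sham. Most of these values did not pass in the reported fit, so that they had no call to lose. All 59 lost calls fell on the 3 genes called in the average of the 4 CCI groups and the 4 called in TNF-CCI over sham. In the average, Pycard lost its call in 18 of 32 alternatives, Tlr7 in 6 and Cd14 in 4. In TNF-CCI over sham, Cd14 lost it in 10 of 33, Tlr4 in 9, Pycard in 7 and Tlr7 in 5. Against sham, edgeR called 1248 genes of the whole table for the average of the 4 CCI groups, 0 for Vehicle-CCI, 0 for TD-CCI, 3 for TCF-CCI and 542 for TNF-CCI, and 0 in the other comparisons. Leaving out single libraries gave 14 to 2117, 0 to 368, 0 to 4, 0 to 6 and 0 to 1563 for those 5, and 0 to 1 for any difference among the CCI groups. For the 10 genes it gave 0 to 7 in the average of the 4 CCI groups, 0 to 3 in Vehicle-CCI and 0 to 4 in TNF-CCI over sham.

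Without the filter, 2070 genes were called in the average of the 4 CCI groups, 1 in TD-CCI and 0 in TCF-CCI over sham, and 2 for any difference. DESeq2 called 2338, 245, 244, 250 and 1370 in the 5 comparisons with sham, 1 in TD-CCI and 1 in TNF-CCI over Vehicle-CCI and 7 for any difference, and of the 10 genes 6 in the average of the 4 CCI groups and 1 in Vehicle-CCI. Limma voom called 2 in TD-CCI, 388 in TCF-CCI and 946 in TNF-CCI over sham. Fits of the groups compared called 139 in TD-CCI, 1 in TCF-CCI and 197 in TNF-CCI over sham, with 1 of the 10 genes in TNF-CCI; for the average of the 4 CCI groups this fit is the reported one. Without Vehicle-sham 2 and 3, 0 genes were called in the average of the 4 CCI groups, 0 in TCF-CCI and 0 in TNF-CCI over sham and 1 for any difference, and 0 of the 10 genes in each. After adjustment for the share of mitochondrial rRNA, 672 genes were called in the average of the 4 CCI groups and 74 in TNF-CCI, with 0 of the 10 genes in TNF-CCI. The cause of these shifts was not tested.

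Replicate numbers are not stated to pair libraries. After group means were subtracted, same-numbered libraries of different groups had a median correlation of 0.123, against -0.0213 for libraries of other numbers. Of the 50 same-numbered pairs 27 correlated above 0.1, and 11 of 25 libraries matched their own number best. Libraries of a number may thus share a source of spread that the reported fit leaves out, and its nature was not tested. With a replicate block, edgeR called 1 gene for Vehicle-CCI, 45 for TD-CCI and 1190 in TNF-CCI over sham. In the average of the 4 CCI groups this fit called 1863 genes of the whole table, 5 of the 10 genes among them. Signs changed only against Vehicle-CCI. In TD-CCI over Vehicle-CCI Tlr3 was 0.024 by limma voom, 0.055 with the block, 0.0048 without Vehicle-sham 2 and 3 and 0.0099 with the covariate, and Cd14 0.14 by limma voom and 0.027 with the block. In TNF-CCI over Vehicle-CCI Tlr2 and Tlr3 were -0.067 and -0.11 by limma voom, Nlrp3 and Casp1 0.041 and 0.019 with the block, and Casp1 0.22 with the covariate. Leaving out single libraries gave, in TD-CCI over Vehicle-CCI, -0.53 to 0.02 for Tlr2, -0.17 to 0.23 for Tlr3, -0.23 to 0.17 for Tlr4, -0.47 to 0.0053 for Tlr7, -0.19 to 0.23 for Cd14, -0.0125 to 0.20 for Myd88 and -0.52 to 0.039 for Nlrp3. In TCF-CCI over Vehicle-CCI it gave -0.52 to 0.014 for Tlr2 and -0.35 to 0.11 for Tlr7. In TNF-CCI over Vehicle-CCI it gave -0.14 to 0.40 for Tlr2, -0.12 to 0.30 for Tlr3, -0.078 to 0.36 for Cd14, -0.37 to 0.32 for Nlrp3, -0.24 to 0.32 for Casp1 and -0.47 to 0.047 for Il18. With 5 libraries a group, the 95% intervals of the 10 genes against Vehicle-CCI reached from -1.31 to 1.07 on the log2 scale.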

Other observations

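Several well-known products of this pathway were below the filter on low counts and were not tested in the reported fit. The highest count in any library was 9 for Il6, 13 for Il10, 17 for Il12b, Ccl5 and Cxcl2, 15 for Nos2 and 2 for Ifnb1, which was at 0 in 16 of the 25 libraries. Among receptors Tlr10, Tlr11 and Tlr12 reached 13, 7 and 14 counts.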
